A study of Mus musculus with 22 samples.

Results

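The 10 genes described here direct the fate of the gonad and were followed in RNA-seq of whole mouse testes with and without the transcription factor MLX. They are Sox9, Sox8, Dmrt1, Foxl2, Nr0b1, Lhx9, Wt1, Gata4 and Nr5a1, which encode transcription regulators, and Fgf9, which encodes a secreted growth factor. They were taken by name, not by any measured value, and all 10 of them had a row among the 17931 gene symbols of the count table. The 6 libraries came from 3 wild-type (WT) and 3 Mlx knockout (MLX KO) males at 7 months of age, in pairs of age-matched littermates with 1 library of each genotype per pair. No treatment was given. The WT males were proven fertile breeders. The MLX KO males were constitutive knockouts that lacked Mlx in the whole body, from an allele made by gene targeting in embryonic stem cells, in which exons 3 to 6, encoding the basic helix-loop-helix leucine zipper, were removed with Meox2-Cre. Since the deletion was present in every cell, these libraries do not separate MLX loss in the cells that express these genes from MLX loss elsewhere in the body. The other 16 samples of the series are chromatin immunoprecipitation libraries and were not analysed here.

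The early gonad can form either a testis or an ovary. Wt1, Gata4, Lhx9 and Nr5a1 act in the common precursor and are needed for the gonad to form; in XY embryos SRY then switches on Sox9, whose product, helped by SOX8 and reinforced by FGF9, drives supporting cells to become Sertoli cells, the somatic cells that nurse the germ cells. In the ovary, WNT4, RSPO1 and FOXL2 hold the opposite program, and the 2 programs repress each other. The choice is actively kept after birth, since loss of Dmrt1 from adult Sertoli cells, or of Foxl2 from adult granulosa cells, turns them towards the cell type of the other sex. In the adult testis Sox9 and Sox8 are Sertoli cell genes, Wt1 and Dmrt1 are also used there (Dmrt1 in spermatogonia as well), and Gata4, Nr5a1 and Nr0b1 are expressed in Sertoli cells and in the steroid-producing Leydig cells.

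Of the 10 genes 6, namely Sox9, Sox8, Wt1, Gata4, Nr5a1 and Nr0b1, were higher in MLX KO testes, by 1.31-fold to 1.76-fold, and none was lower. Dmrt1 and Lhx9 did not pass the test. Fgf9 was scarce, with 11 counts in the 3 WT libraries together and 23 in the 3 MLX KO libraries. Foxl2 had no count in WT and 2 counts in MLX KO, so for the gene that defines ovarian supporting cells no difference was detectable at this depth. Enough counts for the test were present for 8 of the 10 genes. The test was the quasi-likelihood test of edgeR, with p-values adjusted by the Benjamini-Hochberg method over all 14640 genes tested and a threshold of 0.05. Fgf9 and Foxl2 had too few counts for it. Of all genes tested, 24.8% were higher in MLX KO, 20.6% were lower and 45.4% were called in either direction, so that a call in this comparison is common. The split was 3634 higher and 3015 lower, and 5343 higher and 1268 lower when libraries were scaled by their size alone, which moved the median of all genes from 0.03 to 0.16. Without any test, the 3 MLX KO values lay above the 3 WT values for 30.3% of the genes tested and below them for 25.9%. The median log2 fold change of the 8 members was 0.49, beside 0.03 for all genes tested.

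The libraries held 16674678 to 19742726 counts and levels are given as CPM, counts scaled to a common library size, in which 1 library's 3 counts correspond to 0.155 to 0.191 CPM. Germ and Sertoli cell markers of the testis were abundant in both genotypes. The 7 markers of elongating spermatids, among them Prm1 and Tnp1, summed to 17957 to 18857 CPM in WT and to 10355 to 12738 CPM in MLX KO, and the 13 Sertoli markers, among them Cldn11, Fshr and Inha, summed to 1430 to 1484 CPM in WT and 2122 to 2542 CPM in MLX KO. The counts of Mlx itself were 128, 96 and 98 for WT and 94, 109 and 102 for MLX KO, a log2 fold change of -0.18 ± 0.14 (SE) with an edgeR adjusted p of 0.326. Gene-level counts include exons outside the deletion, so this value checks neither the deletion nor the labels.

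The genes of this set lie on 8 chromosomes in the mouse genome, in RefSeq coordinates of GRCm38.p6, the assembly also called mm10. Sox9 spans chr11:112782210-112787757, on the chromosome that carries Mlx but 11.7 Mb away from it, Sox8 spans chr17:25565893-25570686 and Dmrt1 spans chr19:25505618-25604328. Wt1 and Nr5a1 share a chromosome, at chr2:105126529-105173614 and chr2:38692656-38714542, as do Gata4 and Fgf9, at chr14:63198914-63271712 and chr14:58070671-58112854. Nr0b1 is X-linked, at chrX:86191775-86195947, Lhx9 spans chr1:138825186-138848839 and Foxl2 spans chr9:98955607-98958126.

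Promoter sequence was at hand for 5 of the members, Sox8, Foxl2, Nr0b1, Fgf9 and Lhx9. The 250 bases before the annotated start of the 2 of these whose RNA rose are shown, since MLX and its partners bind the E-box. The palindromic E-box CACGTG, which reads the same on both strands, is in capitals where it occurs. The sequences are from RefSeq, in GRCm38.p6, written 5′ to 3′ on the gene's own strand, from chr17:25570687-25570936 (minus strand) for Sox8 and chrX:86191525-86191774 (plus strand) for Nr0b1.
Sox8: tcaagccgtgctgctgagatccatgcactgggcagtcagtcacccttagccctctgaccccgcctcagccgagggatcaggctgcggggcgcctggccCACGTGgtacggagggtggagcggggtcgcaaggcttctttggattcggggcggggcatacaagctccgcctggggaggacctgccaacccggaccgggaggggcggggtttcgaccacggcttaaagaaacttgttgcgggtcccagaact
Nr0b1: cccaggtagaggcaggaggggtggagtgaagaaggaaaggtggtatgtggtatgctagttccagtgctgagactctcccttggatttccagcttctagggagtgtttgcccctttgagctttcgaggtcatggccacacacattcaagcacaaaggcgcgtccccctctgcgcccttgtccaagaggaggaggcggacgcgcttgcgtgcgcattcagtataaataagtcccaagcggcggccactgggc

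The Sox8 window held 1 CACGTG, from 152 to 147 bases before the start, and the Nr0b1 window held none, as did those of Foxl2, Fgf9 and Lhx9. The same letters stood in 6.02% of the 32851 promoter windows of that length, and a match is a match of letters, not a bound site. A further 3 motifs were looked for on both strands of the 5 windows. The element CAAGGTCA, read by NR5A1, and the core AACAAT, read by SOX proteins, were in none of them, against 1.33% and 9.42% of all windows. The GATA element AGATAA was found once, in the Fgf9 window, from 224 to 219 bases before the start used there, against 9.99% of all windows. The windows of Fgf9 (chr14:58072436-58072685) and Lhx9 (chr1:138842445-138842694) lie inside the gene spans given above. They precede a start within the gene, and the sequence before its outermost start was not searched. The Sox8 window was rich in G and C, at 65.6% with 18 CpG sites, and the Nr0b1 window had 57.2% and 11 CpG sites, beside medians of 52.4% and 6 over all windows.

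Sox9, the gene at the centre of Sertoli cell fate, rose from 16.5 ± 0.669 CPM (SD, n = 3) in WT to 28.3 ± 4.05 CPM (SD, n = 3) in MLX KO. The WT libraries had 16, 16.3 and 17.3 CPM in the order of the pairs, and the MLX KO libraries had 24.0, 28.9 and 32.1 CPM. The groups did not overlap, each MLX KO library was above its WT littermate, and the WT libraries lay close together while the MLX KO libraries were spread more widely. The log2 fold change was 0.78 ± 0.10 (SE), a 1.72-fold rise, with a 95% confidence interval of 0.55 to 1.01 and an edgeR adjusted p of 0.000193. Of all genes tested, 89.9% had a lower log2 fold change.

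Sox8, the close relative of Sox9 that partly stands in for it, had 14.6, 13.6 and 16.7 CPM in WT and 18.0, 21.4 and 22.9 CPM in MLX KO. Here too the highest WT library was below the lowest MLX KO library, although the gap was small. Sox8 had a log2 fold change of 0.47 ± 0.11 (SE), or 1.39-fold, with an interval of 0.23 to 0.71 and an edgeR adjusted p of 0.00518. The span of Sox8 overlaps that of a gene on the other strand, 2810468N07Rik, over 329 bases. Whether their exons overlap was not determined, and it is not stated whether the counting used strand. The ratio of Sox9 to Sox8 counts within a library, which does not depend on how libraries are scaled, was 1.10, 1.2 and 1.03 for WT and 1.34, 1.35 and 1.40 for MLX KO. The groups of ratios did not overlap, with a difference of 0.30 on the log2 scale and a two-sided exact permutation p of 0.1, the smallest that 3 against 3 libraries can give. This pair of genes was chosen for comparison after the values had been seen, and the intervals of their log2 fold changes overlap.

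**Figure D1:**
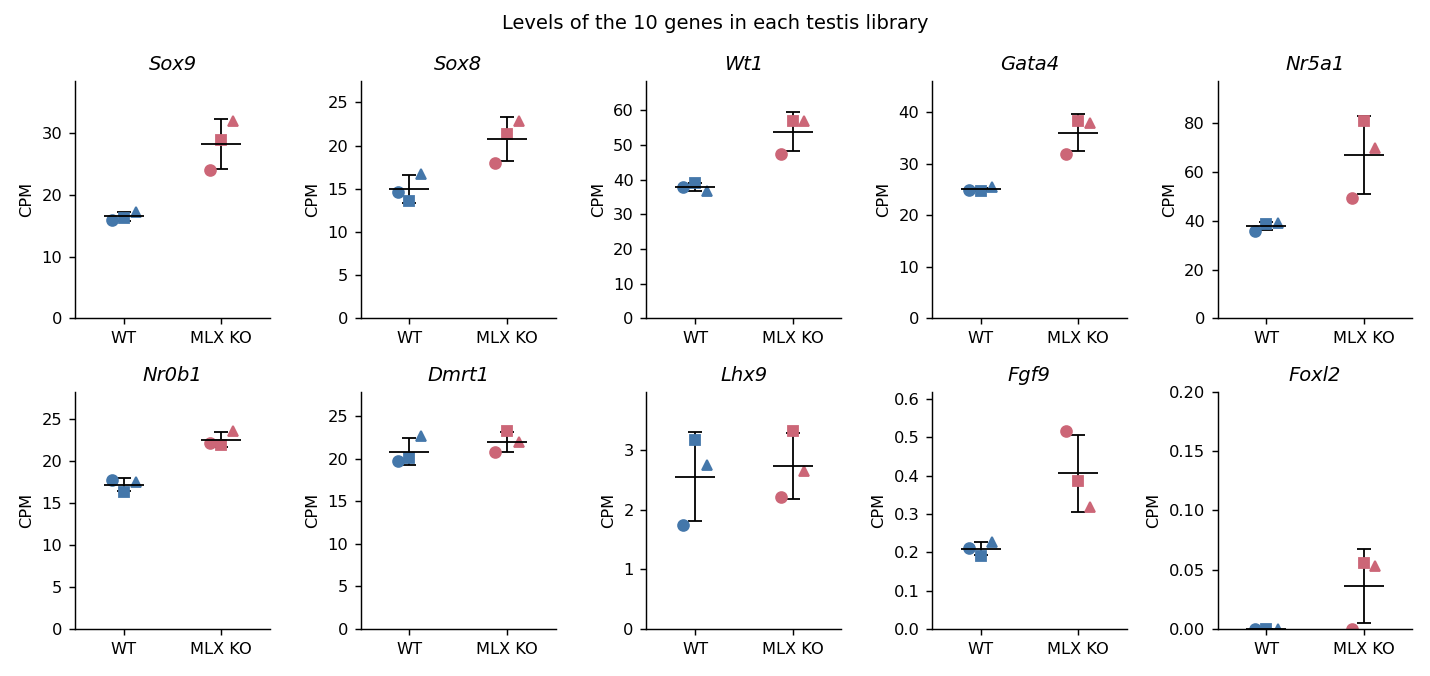
Level of each of the 10 genes in CPM (vertical axes, linear, each from 0) in the 3 WT and 3 MLX KO testis libraries. Points are libraries, with the same shape for littermates (circle, square and triangle for pairs 1 to 3); the wide bar is the mean and the error bar is 1 SD. Sox9, Sox8, Wt1, Gata4, Nr5a1, Nr0b1 and Fgf9 show no overlap between the groups, Dmrt1 and Lhx9 overlap, and Foxl2 is at 0 in WT with 0.0553 CPM at most in MLX KO.

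Wt1, a zinc finger regulator needed for the gonad to form and for Sertoli cells to keep their identity, had 37.8, 38.9 and 36.8 CPM in WT and 47.3, 57.0 and 57.0 CPM in MLX KO. Gata4, a zinc finger partner of NR5A1, had 24.9, 24.8 and 25.4 CPM in WT and 31.9, 38.4 and 37.9 CPM in MLX KO. For each of them the WT libraries were close together, the groups stood apart, and the MLX KO library of pair 1 was the lowest of its group. The log2 fold change of Wt1 was 0.51 ± 0.08 (SE), with an interval of 0.34 to 0.68 and an edgeR adjusted p of 0.000405. That of Gata4 was 0.52 ± 0.08 (SE), with an interval of 0.35 to 0.70 and an edgeR adjusted p of 0.000443. The rises were 1.42-fold and 1.44-fold.

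Nr5a1, which encodes the nuclear receptor SF-1, needed for the gonads and adrenals to form and for steroid synthesis, had a log2 fold change close to that of Sox9. It had 35.9, 38.9 and 39.0 CPM in WT and 49.5, 81.2 and 70.1 CPM in MLX KO. The group means were 37.9 ± 1.78 CPM (SD, n = 3) and 66.9 ± 16.1 CPM (SD, n = 3), and all MLX KO libraries lay above all WT libraries. The log2 fold change was 0.82 ± 0.14 (SE), with an interval of 0.51 to 1.13 and an edgeR adjusted p of 0.000851. The pairs differed in its size, with log2 differences of 0.46, 1.06 and 0.84, and without KO replicate 2 the log2 fold change was 0.66, beside 0.77 for Sox9. The span of Nr5a1 overlaps that of the antisense gene Nr5a1os over 1867 bases. Whether their exons overlap was not determined. If they do and strand was not used, counts of both may be mixed. Within libraries the ratio of Nr5a1 to Gata4 counts was 1.44, 1.57 and 1.54 for WT and 1.55, 2.11 and 1.85 for MLX KO. These ranges overlapped, and the difference of 0.27 (log2) gave a two-sided exact permutation p of 0.2.

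Nr0b1, which encodes DAX1, a receptor-like protein without the usual DNA-binding domain that holds NR5A1 in check, had 17.7, 16.3 and 17.5 CPM in WT and 22.1, 21.9 and 23.5 CPM in MLX KO. The groups did not overlap. Its log2 fold change was 0.39 ± 0.08 (SE), or 1.31-fold, with an interval of 0.22 to 0.56 and an edgeR adjusted p of 0.00201. Its rise was nearly the same in each pair, at 0.32, 0.42 and 0.42 (log2).

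Of the 6 genes that rose, Nr0b1 varied least among MLX KO libraries, with a coefficient of variation of 3.90%. That is below the 4.86% that counting alone would give. For Sox9, Wt1, Gata4 and Nr5a1 the coefficients of variation were 14.3%, 10.4%, 10.0% and 24.0% in MLX KO and 4.05%, 2.77%, 1.2% and 4.71% in WT, with counting error at or under 5.89% for each of them in either group. In WT the coefficients of Sox9, Wt1 and Gata4 were also below their counting errors of 5.89%, 3.89% and 4.78%. So was that of Nr0b1, at 4.24% against 5.76%. Sox8 was about as variable in WT, at 10.6%, as in MLX KO, at 12.3%. The MLX KO library of pair 1 was the lowest of its group for Sox9, Sox8, Wt1, Gata4 and Nr5a1, and also for Dmrt1 and Lhx9, which did not pass the test. That library also had the lowest summed Sertoli markers of the MLX KO group, 2122 CPM against 2542 and 2495 CPM, and the lowest summed Leydig markers, 1822 CPM against 2388 and 2211 CPM. With 3 libraries in a group these differences in spread were not tested.

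Dmrt1, the regulator that keeps adult Sertoli cells male and controls spermatogonial differentiation, did not pass the test. It had 19.7, 20.1 and 22.6 CPM in WT and 20.8, 23.2 and 21.9 CPM in MLX KO, so the groups overlapped, and MLX KO was higher in 2 of 3 pairs. The log2 fold change was 0.08 ± 0.08 (SE) with an edgeR adjusted p of 0.47. Its interval, -0.10 to 0.26, does not reach the point estimate of any of the 6 genes that rose. It does overlap the intervals of Nr0b1 (0.22 to 0.56) and Sox8 (0.23 to 0.71). The ratio of Dmrt1 to Sox9 counts was 1.23, 1.23 and 1.31 for WT and 0.865, 0.803 and 0.683 for MLX KO. In other words Dmrt1 counts exceeded Sox9 counts in every WT library and fell below them in every MLX KO library. The difference in the ratio was -0.69 (log2), with a two-sided exact permutation p of 0.1, the smallest possible without pairing. These counts are not scaled to exon length. Per kilobase of exon Dmrt1 lay above Sox9 in both groups, at 8.01 against 3.99 CPM in WT and 8.47 against 6.85 CPM in MLX KO. Of all genes tested, 89.9% had a lower log2 fold change than Sox9. The pair of Dmrt1 and Sox9 too was chosen after the values had been seen.

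Lhx9, a LIM homeobox gene that acts with WT1 on Nr5a1 in the early gonad, was expressed at a much lower level. It was seen with 33, 50 and 49 counts among WT libraries and 43, 60 and 50 among MLX KO libraries, or 2.56 ± 0.741 CPM (SD, n = 3) and 2.73 ± 0.555 CPM (SD, n = 3). The groups overlapped almost wholly. The log2 fold change was 0.10 ± 0.25 (SE), with an edgeR adjusted p of 0.766 and an interval of -0.45 to 0.65, wide enough to hold the rises seen for Wt1, Gata4, Sox8 and Nr0b1. Without WT replicate 1 the log2 fold change was -0.13, and without KO replicate 2 it was -0.06.

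Fgf9, which sustains Sox9 in the fetal testis, was counted 4, 3 and 4 times in the WT libraries and 10, 7 and 6 times in the MLX KO libraries, or 0.209 ± 0.0175 CPM and 0.407 ± 0.101 CPM (SD, n = 3 each). All 3 MLX KO libraries were above all 3 WT libraries. The ratio of the MLX KO to the WT level, each summed over its 3 libraries and scaled to their size, was 1.95. Its 95% exact interval of 0.911 to 4.42 covers counting error only. The exact permutation p was 0.1 (two-sided), the smallest possible without pairing. With no filter on low counts, edgeR gave a log2 fold change of 0.94 ± 0.52 (SE) and an adjusted p of 0.185. A ratio of 1 lies inside the counting interval, so a difference in Fgf9 was not detectable at this depth. The span of Fgf9 overlaps that of Gm17109 on the other strand over 358 bases.

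Foxl2, the forkhead gene of ovarian granulosa cells, was at 0 counts in each WT library and at 0, 1 and 1 counts in the MLX KO libraries. Both groups were at or under 3 counts per library, a count that a library with none observed could still allow, so no fold is given and no difference was detectable at this depth. The span of Foxl2 overlaps that of Foxl2os on the other strand over 12 bases.

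**Figure D2:**
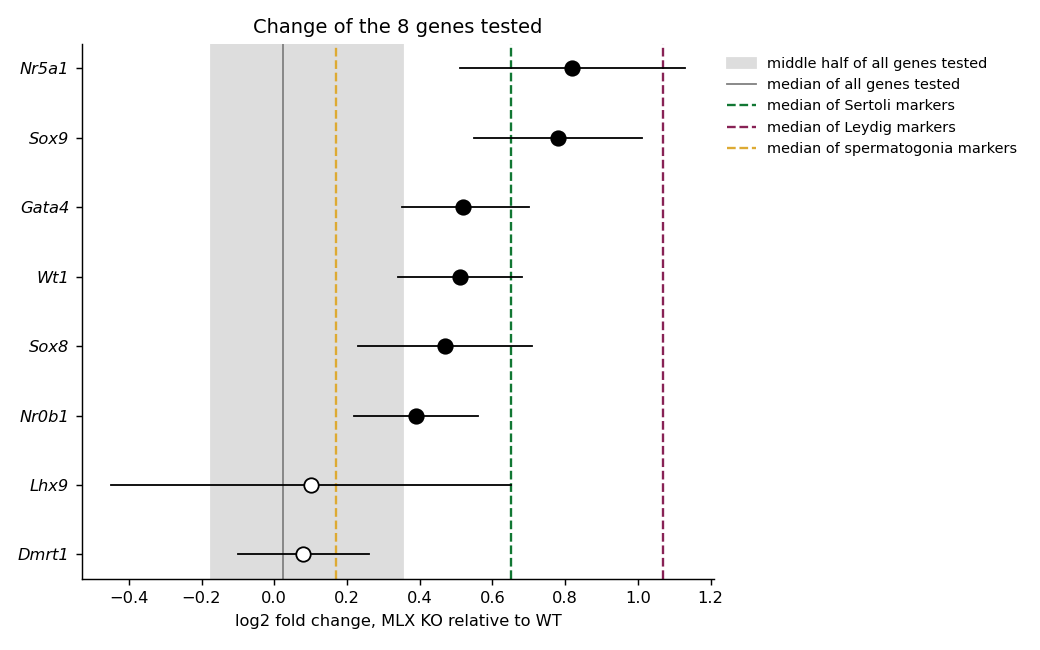
Log2 fold change of MLX KO relative to WT (horizontal axis) for the 8 genes with enough counts to test, with 95% confidence intervals; filled points passed an adjusted p of 0.05 in edgeR and open points did not. The grey band spans the lower to the upper quartile of all genes tested, the grey line is their median (0.03), and dashed lines are the medians of 7 spermatogonial (0.17), 13 Sertoli (0.65) and 7 Leydig (1.07) markers. The 6 filled points lie between 0.39 and 0.82.

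Levels of different genes were compared per kilobase of exon. In WT the order of mean levels, in CPM per kilobase, was Nr0b1 at 9.50 ± 0.403, Nr5a1 at 8.94 ± 0.421, Dmrt1 at 8.01 ± 0.614, Gata4 at 6.41 ± 0.0769, Wt1 at 6.11 ± 0.169, Sox8 at 4.79 ± 0.507, Sox9 at 3.99 ± 0.162, Lhx9 at 0.270 ± 0.0780 and Fgf9 at 0.0450 ± 0.00376 (SD, n = 3 for each), with Foxl2 at 0. The range of Nr5a1 overlapped those of Nr0b1 and Dmrt1, and the other neighbours in that order did not overlap. In MLX KO the order was Nr5a1 at 15.8 ± 3.79, Nr0b1 at 12.4 ± 0.485, Gata4 at 9.23 ± 0.926, Wt1 at 8.68 ± 0.906, Dmrt1 at 8.47 ± 0.461, Sox9 at 6.85 ± 0.979, Sox8 at 6.66 ± 0.817, Lhx9 at 0.287 ± 0.0585, Fgf9 at 0.0875 ± 0.0216 and Foxl2 at 0.0111 ± 0.00961. Dmrt1 thus moved from the third place to the fifth, behind Gata4 and Wt1, but in MLX KO its range overlapped those of both. Sox9 and Sox8 changed places, with overlapping ranges in MLX KO, as did Nr5a1 and Nr0b1. Exon lengths are those of all annotated transcripts of a gene joined, so genes with rarely used exons appear lower per kilobase.

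In a bulk sample a larger share of a cell type and more RNA of a gene per cell cannot be told apart, and in these testes the markers of somatic cells moved with the genotype. All 13 Sertoli markers were higher in MLX KO, with a median log2 fold change of 0.65, and so were all 7 Leydig markers (median 1.07), all 7 macrophage markers (1.28), and 4 of 5 peritubular myoid markers (0.56). Of 4 endothelial markers 2 were higher and 2 did not pass. By contrast all 7 markers of elongating spermatids (median -0.74) and all 7 of round spermatids (-0.25) were lower, as were 5 of 7 spermatocyte markers (-0.16), while of 7 spermatogonial markers 2 were higher and 5 did not pass (0.17). Summed levels of Leydig markers rose from 840 to 866 CPM in WT to 1822 to 2388 CPM in MLX KO, and of macrophage markers from 75.3 to 80.9 CPM to 158 to 165 CPM. The part of these shifts in the rise of the 6 genes was not tested.

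Other tissue of the male tract could also carry Wt1, Lhx9 or Gata4. Of 8 markers of rete testis and surface epithelium, 3 had enough counts, none of them passed the edgeR test (the lowest adjusted p was 0.36, for Cdh1), and the sum of all 8 was 12.3 to 14.5 CPM in WT and 13.2 to 14.1 CPM in MLX KO. Krt8 made up most of that sum, and among the scarce markers Pax8 had 3, 2 and 2 counts for WT and 2, 7 and 12 for MLX KO, Krt18 had 3, 4 and 4 against 4, 8 and 9, and Msln had 1, 2 and 5 against 1, 4 and 11. Of the 5 epididymal markers with a row, Rnase10 was lower, at -0.68 (log2), and the others were at or near 0: Lcn5 and Adam7 had 1 count each over all WT libraries and none over all MLX KO libraries, Lcn9 had none in WT and 2, 1 and 1 in MLX KO, and Crisp1 had at most 4 in any library.

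For that reason each gene was also set against the 13 Sertoli markers, as its log2 CPM minus their mean log2 CPM in the same library, a measure in which library scaling cancels but for the prior count. The mean of the markers was 5.29 ± 0.03 in WT and 5.96 ± 0.10 in MLX KO (log2 CPM, SD, n = 3 each). On this scale Sox9 lay at -1.30, -1.22 and -1.19 in WT and at -1.25, -1.16 and -1.01 in MLX KO. The groups overlapped although MLX KO was higher in all 3 pairs. The difference was 0.10, with an exact permutation p of 0.4 (two-sided and unpaired, as for all exact permutation tests in this paragraph). Nr5a1 overlapped as well and was higher in 2 of 3 pairs, with a difference of 0.12 and an exact permutation p of 0.5. Sox8, Wt1, Gata4 and Nr0b1 were lower relative to the markers in all 3 pairs without overlap, by differences of -0.20, -0.17, -0.15 and -0.28. Each had an exact permutation p of 0.1, the smallest that a test without pairing allows here. Dmrt1 differed most, at -1.0, -0.91 and -0.80 in WT against -1.46, -1.47 and -1.56 in MLX KO, a difference of -0.59 with an exact permutation p of 0.1. Lhx9 differed by -0.56, lower in all 3 pairs but with overlapping groups and an exact permutation p of 0.2. When signs were instead flipped within littermate pairs, the two-sided sign-flip p was 0.5 for Nr5a1. It was 0.25 for each of the other genes, Sox9 included, which is the smallest that 3 pairs allow. Of all genes tested 74.3% were lower on this scale without overlap and 4.93% were higher, so being lower relative to Sertoli markers is the common state of a gene in these libraries. A check not planned in advance left Clu, Vim and Amhr2 out of the markers. The difference of Sox8 was then -0.17, with an exact permutation p of 0.2. Those of Wt1, Gata4 and Nr0b1 were -0.14, -0.12 and -0.25, each with an exact permutation p of 0.1. Sox9 and Nr5a1 differed by 0.13 and 0.15, and Dmrt1 and Lhx9 by -0.56 and -0.53.

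**Figure D3:**
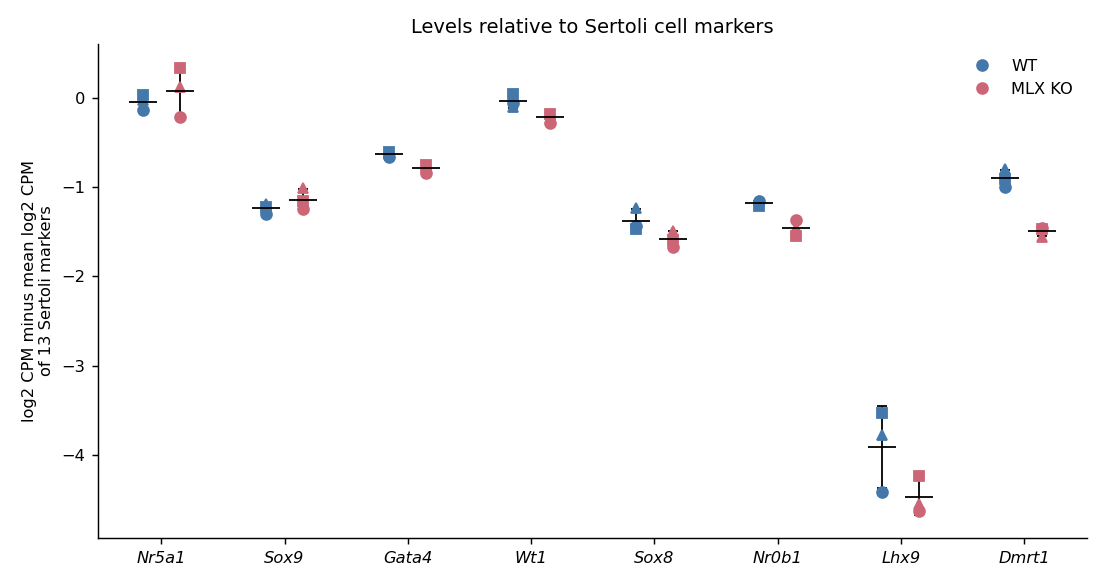
Level of the 8 genes relative to Sertoli cell markers, as log2 CPM minus the mean log2 CPM of 13 markers in the same library (vertical axis). Points are libraries, with circle, square and triangle for pairs 1 to 3, and bars give the mean and 1 SD of 3 libraries; Sox9, Nr5a1 and Lhx9 overlap between WT (blue) and MLX KO (red), and the other 5 genes are lower in MLX KO, Dmrt1 by the largest difference among them (-0.59).

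The choice of reference cells mattered. Against the 7 Leydig markers all 8 genes were lower in MLX KO without overlap, from -0.35 for Nr5a1 and -0.38 for Sox9 to -1.06 for Dmrt1. Against the 7 spermatogonial markers the differences were 0.58 for Sox9, 0.60 for Nr5a1, 0.33 for Gata4, 0.20 for Nr0b1 and -0.11 for Dmrt1. Each was without overlap and had a two-sided exact permutation p of 0.1, the smallest possible without pairing. On that scale the groups were not separated for Wt1 (0.31, exact permutation p = 0.2), Sox8 (0.28, exact permutation p = 0.3) and Lhx9 (-0.08, exact permutation p = 0.8), and of all genes tested 15.8% were higher and 39.5% lower without overlap. Of all genes tested, 88.0% were lower against the Leydig markers without overlap. Both scales were added after the data had been seen.

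Genes of the testis program around these regulators were counted next. Of 18 such genes 15 had enough counts, and 9 of these were higher in MLX KO, none was lower and 6 did not pass, with a median log2 fold change of 0.54, beside 24.8% higher and 20.6% lower of all genes tested. Amh, the Sertoli cell hormone that removes the Müllerian duct and a direct target of SOX9, NR5A1, WT1 and GATA4, rose from 29, 27 and 25 counts for WT to 75, 65 and 71 for MLX KO. All 3 MLX KO libraries were well above the WT range, and the log2 fold change was 1.27 ± 0.18 (SE) with an edgeR adjusted p of 0.000302. Its receptor gene Amhr2 rose by 0.54 ± 0.07 (edgeR adjusted p = 0.000178) and is 1 of the 13 Sertoli markers above. Ptgds, which makes the prostaglandin D2 that feeds back on SOX9, rose from 195 to 364 CPM, by 0.90 (log2, edgeR adjusted p = 4.12e-05). Ptgdr, a receptor for that prostaglandin, did not pass, with a log2 fold change of -0.45.

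Sertoli cells instruct Leydig precursors by Hedgehog signals. Dhh, the ligand made by Sertoli cells, rose by 0.47 ± 0.09 (log2, SE), from 14.8 to 20.4 CPM, with an edgeR adjusted p of 0.00142. Ptch1, its receptor and itself a target of the signal, rose by 0.99 ± 0.12 with an edgeR adjusted p of 9.82e-05. Gli1, a transcription factor of the same arm, did not pass, with a log2 fold change of 0.61 and an edgeR adjusted p of 0.0549. The edgeR adjusted p was 0.0331 with the littermate pair as a block and 0.0283 with library size alone. It was 0.0465 without WT replicate 2 and 0.0246 without KO replicate 1. In the other settings Gli1 did not pass. Its adjusted p was 0.162 with DESeq2 and 0.281 with DESeq2 and the block. In edgeR it was 0.192 without WT replicate 1 and 0.195 without KO replicate 2. Pdgfra, a receptor of interstitial cells, rose by 1.35 (edgeR adjusted p = 6.6e-06) and Hsd17b3, the last enzyme of testosterone synthesis, by 1.31 (edgeR adjusted p = 0.000155), both of them genes of cells outside the tubule in the adult. Cyp26b1, which degrades retinoic acid, rose by 0.45. Map3k4, a kinase upstream of Sry, did not pass, with a log2 fold change of 0.24 and an edgeR adjusted p of 0.0577. The edgeR adjusted p was 0.0361 with the block, 0.00949 with library size alone and 0.0485 without KO replicate 2. Map3k4 did not pass in the other settings. Sry itself and Fgf20, a partner of Fgf9, had at most 2 counts in any library.

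Among the 5 FGF receptor genes, Fgfr2, the receptor through which FGF9 acts in the fetal gonad, was the only one called higher. The 3 WT libraries gave it 78, 64 and 99 counts and the 3 MLX KO libraries 171, 226 and 223, a log2 fold change of 1.26 ± 0.17 (SE) with an edgeR adjusted p of 0.0002. Fgfr3 was called lower, from 5.82 to 4.34 CPM, with a log2 fold change of -0.42 ± 0.15 and an edgeR adjusted p of 0.0405, a call lost in 7 of 14 other settings, among them without WT replicate 2 or 3 or KO replicate 1 or 3 (edgeR adjusted p from 0.0731 to 0.144). Fgfr1, Fgfr4 and Fgfrl1 did not pass, with log2 fold changes of 0.15, 0.35 and -0.02, though Fgfr1 did without KO replicate 1 (edgeR adjusted p = 0.0469) and Fgfr4 without WT replicate 1 (0.0377).

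The ovarian side of the switch was not uniform. Of 16 genes that drive or restrain the ovary program 13 had enough counts. Of these 8 were higher, 1 was lower and 4 did not pass, against the same 24.8% and 20.6% of all genes tested. The median log2 fold change was 0.68. The 1 lower gene was Znrf3, which restrains WNT signals rather than carrying them. Wnt4, the secreted signal that opposes SOX9 and FGF9 in the fetal gonad, showed the greatest change of the genes in these lists. With 5, 2 and 3 counts it was barely present in WT, and it reached 142, 140 and 128 counts in MLX KO, a log2 fold change of 5.21 ± 0.25 (SE) with an edgeR adjusted p of 3.23e-07. In each WT library Wnt4 had at most 0.0165 counts for 1 count of Sox9, and in MLX KO it had 0.305, 0.268 and 0.211. Wnt4 was thus well below Sox9 in counts in all 6 libraries.

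Fst, which encodes the activin antagonist follistatin and lies downstream of WNT4 in the ovary, rose from 8, 8 and 13 counts for WT to 61, 76 and 80 for MLX KO, by 2.79 ± 0.26 (log2, edgeR adjusted p = 2.34e-05). Bmp2, another gene of the same branch, was counted once in all WT libraries together and 7, 5 and 5 times in the MLX KO libraries, and was not tested. The observed MLX KO level was 1.74-fold that of WT libraries set to 3 counts each. That figure is not a lower bound, since it allows for no counting error in MLX KO. Runx1, a partner of FOXL2 in fetal granulosa cells and used in blood cells as well, rose by 1.37 ± 0.25 (edgeR adjusted p = 0.00111). Rspo1, which strengthens WNT signals, moved from 13, 10 and 7 counts for WT to 17, 20 and 28 for MLX KO, with a log2 fold change of 1.00 ± 0.34 and an edgeR adjusted p of 0.0297, a call that was lost in 6 of the 13 other settings in which it was tested, among them without WT replicate 2 or 3 or KO replicate 2 or 3 (edgeR adjusted p from 0.0629 to 0.128). Ctnnb1, the β-catenin gene expressed in most cells, rose by 0.32 ± 0.05 (edgeR adjusted p = 0.00052).

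The test was not passed by 2 genes that respond to β-catenin in many tissues. Axin2 had a log2 fold change of 0.06 (edgeR adjusted p = 0.795) and Lgr5 of 0.03 (edgeR adjusted p = 0.889). Znrf3, a brake on WNT receptors, was lower, at -0.28 ± 0.10 with an edgeR adjusted p of 0.0332, a call that was lost in 4 of 14 settings, those without WT replicate 1 or 2 or KO replicate 3 (edgeR adjusted p from 0.0504 to 0.141) and library size alone. Cyp19a1, the aromatase gene that FOXL2 controls in granulosa cells, did not pass, at -0.28 with an edgeR adjusted p of 0.212. Esr1, Nr2f2 and Map3k1 rose by 0.93, 0.75 and 0.68, and Esr1 and Nr2f2 are also expressed in interstitial cells of the adult testis.

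**Figure D4:**
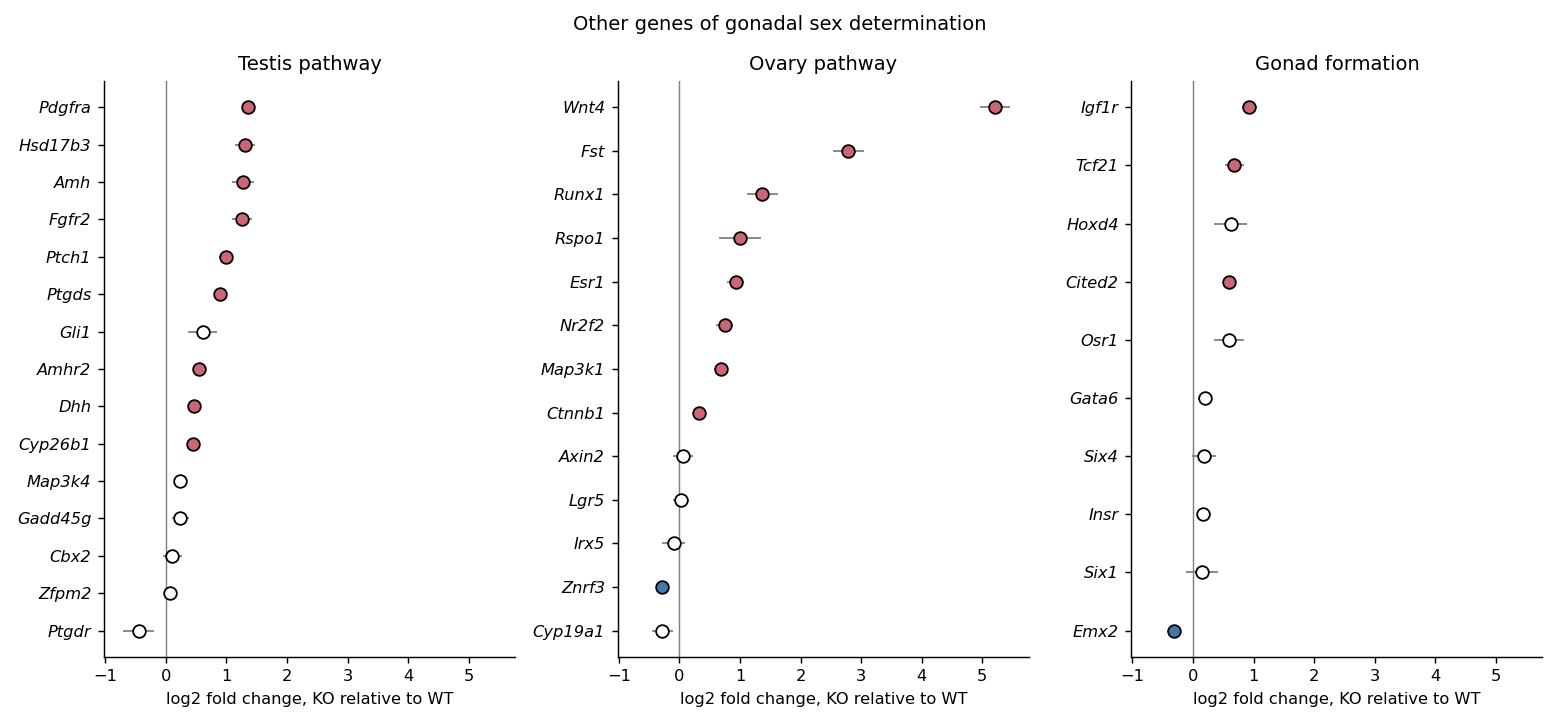
Log2 fold change of MLX KO relative to WT (horizontal axes, the same in each panel) with 1 SE for genes of the testis pathway, the ovary pathway and gonad formation that had enough counts to test. Red and blue points passed an adjusted p of 0.05 in edgeR as higher and lower, and open points did not; Wnt4 (5.21) and Fst (2.79) lie far to the right of the other genes.

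Genes that act with Lhx9, Wt1, Gata4 and Nr5a1 when the gonad first forms were called about as often as genes at large. Of 10 such genes tested, 3 were higher, 1 was lower and 6 did not pass, beside 24.8% higher and 20.6% lower of all genes tested, with a median log2 fold change of 0.39. Igf1r, Tcf21 and Cited2 rose by 0.93, 0.68 and 0.59, and each of them is used in several adult cell types. The call of Tcf21 was lost with DESeq2 and the replicate block (0.65, adjusted p = 0.138). Emx2, a homeobox gene of the urogenital ridge, was lower, at -0.32 with an edgeR adjusted p of 0.0394, a call lost in 8 of 14 settings, among them without any 1 library other than KO replicate 1 (edgeR adjusted p from 0.0741 to 0.15). Gata6, the paralog of Gata4 in Sertoli and Leydig cells, did not pass, at 0.19 (edgeR adjusted p = 0.127).

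Of 13 near relatives of the 10 genes that were tested 4 were higher, 5 were lower and 4 did not pass, with a median log2 fold change of -0.02, beside 24.8% higher and 20.6% lower of all genes tested. Gata1, which in the testis is a Sertoli cell gene, rose from 7.75 to 14.2 CPM, by 0.87 ± 0.11 (edgeR adjusted p = 0.000132), while Gata2 was lower, at -0.25 (edgeR adjusted p = 0.0207), a call lost without WT replicate 1 or 2 or KO replicate 2 (edgeR adjusted p from 0.0577 to 0.0913). Within the DM domain family, Dmrta1 and Dmrtc1a rose by 0.45 and 0.37, whereas Dmrtb1, which directs spermatogonia into meiosis, fell from 647 to 512 CPM (log2 fold change -0.34 ± 0.06, edgeR adjusted p = 0.000757) and Dmrtc2, a gene of meiotic prophase, had -0.17 (edgeR adjusted p = 0.0105). The calls of Gata2 and Dmrtc2 were lost with library size alone, at -0.11 and -0.03, and with DESeq2 and the replicate block (adjusted p of 0.125 and 0.0584). The LIM homeobox genes Lhx1, used in spermatogonial stem cells, and Lhx2 were lower, at -1.07 ± 0.25 (edgeR adjusted p = 0.00471) and -0.60 (edgeR adjusted p = 0.00782), the call of Lhx2 being lost with DESeq2 and the replicate block (-0.63, adjusted p = 0.0542). Egr1, a zinc finger gene and early response gene related to Wt1, rose by 1.08 but from 5.11, 5.15 and 5.19 CPM to 15.3, 10.1 and 7.25 CPM, with a wide spread among MLX KO libraries.

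The genes most like each member over the 6 libraries were taken as those with the highest Pearson correlation of log2 CPM, as a description with no test, since the 6 points share their genotype and their libraries. They were Pcyt1b for Sox9 (r = 0.999), Xpnpep2 for Sox8 (0.999), Morc2a for Dmrt1 (0.993), Ly6c1 for Nr0b1 (0.998), Wdr4 for Lhx9 (0.992), Actr2 for Wt1 (0.999), Aqp8 for Gata4 (0.999) and Srrm1 for Nr5a1 (0.999). Correlations over 0.95 were common for the genes that rose. Of the other 14639 genes, 1648 had r over 0.95 with Gata4, 1516 with Sox9 and 1394 with Wt1. The number was 928 for Nr0b1, 840 for Nr5a1 and 606 for Sox8, against 22 for Dmrt1 and 15 for Lhx9. Among the members, Wt1, Gata4 and Sox9 were the closest, with r from 0.98 to 0.99 between them, and Dmrt1 and Lhx9 were less like the others, with r of at most 0.74 (Dmrt1 with Sox8) and 0.61 (Lhx9 with Dmrt1). Srrm1 had a log2 fold change of only 0.06, which did not pass the test (edgeR adjusted p = 0.284), beside 0.82 for Nr5a1.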

How the data were processed

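RNA of whole testes was extracted with Trizol and sequenced as paired ends on an Illumina HiSeq instrument. Per the labels and the study's methods, the authors demultiplexed reads with bcl2fastq 1.8.4, aligned them to mm10 with TopHat and deposited raw read counts per gene symbol; the counting tool, its annotation and its use of strand are not given in the sources used here. Beside the counts, the deposited table holds the authors' own comparison in columns in the DESeq2 layout, namely a mean signal of normalized counts per gene, a log2 fold change with its error, a test score and a p-value with its adjusted form, and none of these was used. No column belonged to other samples. Of 17933 rows 2 were repeats, which left 17931 symbols.

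Counts were tested with edgeR 4.0.16 in R 4.3.3 (TMM scaling, filterByExpr with a minimum count of 10, quasi-likelihood test, genotype as the only term, 2 groups of 3). CPM use TMM-scaled library sizes, and log2 CPM a prior count of 2. SE and 95% confidence intervals of log2 fold changes are from the same fit. The scripts were tested on simulated data. Where a value has few counts, 3 counts in a library served as the limit that an observed 0 allows, and this limit and the counting interval cover counting error only. Levels relative to marker cells and ratios within libraries were compared by unpaired exact permutation tests over libraries. Levels relative to Sertoli markers were also compared by flipping signs within littermate pairs. Lengths are joined exons of GENCODE M21 (mm10), found for 97.8% of symbols; coordinates and promoters are from RefSeq.

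Replicate numbers were paired, since the labels name paired replicates and the study used littermates. Deviations from the group means correlated at 0.145, 0.0363 and 0.121 within pairs and from -0.123 to 0.033 between other libraries. Libraries of a group differed by more than counting noise, and none was a duplicate of another. The genes, lists and tests were chosen with earlier results of these data known. All 10 members are named, together with genes of the pathway, formation, paralog and FGF receptor lists, defining markers, and the gene most correlated with each tested member. Comparisons of 2 genes within a library were added later. Alternatives were DESeq2 1.42.0, the replicate block, other scalings and filters, and leaving out each library. Marker genes Lcn8 and Meioc and the 16 chromatin samples were not analysed here, and 1 gene of the formation list is not reported here.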

Additional observations from a re-analysis of the deposited data

How the results depend on the processing

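The 6 members called higher kept that call in all 14 other settings, which were the replicate block, DESeq2 with and without it, 3 other scalings, 2 other filters and each library left out. Their lowest and highest log2 fold changes were 0.69 and 0.92 for Sox9, 0.40 and 0.61 for Sox8, 0.47 and 0.65 for Wt1, 0.48 and 0.67 for Gata4, 0.66 and 1.00 for Nr5a1 and 0.35 and 0.53 for Nr0b1. Dmrt1 stayed short of the threshold in all 14, at 0.04 to 0.22. Over 60 named genes, 777 of 839 values kept their direction and side of the threshold, 35 lost the call, 13 gained one and 14 reversed, all of these in genes not called. With libraries left out, log2 fold changes ran from -0.13 to 0.28 for Lhx9, -0.02 to 0.09 for Lgr5, -0.05 to 0.17 for Axin2, -0.0002 to 0.23 for Cbx2, -0.13 to 0.65 for Sox10 and -0.12 to 0.10 for Fgfrl1. Fgfrl1 was at 0.12 with library size alone, and Lgr5 was at -0.0009 with DESeq2, -0.0019 with DESeq2 and the replicate block and -0.0004 with DESeq2 size factors. Gonad formation genes past the threshold were 4, but 2 with DESeq2 and the replicate block and 7, all higher, with library size alone; the cause was not tested. The edgeR fit with the replicate block called 6 members, and among the genes named it changed the calls of Gli1 and Map3k4, given above, and no other. With DESeq2 and the replicate block Rspo1, Fgfr3, Emx2, Tcf21, Lhx2, Gata2, Dmrtc2 and Rnase10 lost their calls. Relative levels depended on the marker list: with Leydig markers the differences of Sox9 and Nr5a1 became -0.38 and -0.35, and with spermatogonial markers those of Sox8, Nr0b1, Wt1 and Gata4 became 0.28, 0.20, 0.31 and 0.33. The difference of Nr5a1 relative to Sertoli markers ran from -0.01 to 0.26 with libraries left out. Fgf9 and Foxl2 are limited by depth, with 11 and 0 counts in all WT libraries together.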
